A study of Homo sapiens with 6 samples.

Results

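The 52 genes described here encode the machinery of the G2 phase and mitosis: the cyclins and kinase that drive entry, the spindle motors, the kinetochore and its checkpoint, and the factors that separate chromosomes and divide the cell. They were taken as a fixed list of mitotic kinase, kinesin, kinetochore and G2/M symbols, and each matched 1 of the 60660 gene IDs in the files. All 52 passed the filter on low values (at least 1 normalised read in at least 3 libraries), which 28015 genes passed. The cells are OCI-AML3, a human leukaemia line of the acute myeloid type. In 3 libraries SLC2A3 was overexpressed, which encodes GLUT3, a glucose transporter whose family also carries oxidised vitamin C. Their controls carry an empty vector, named pLenti in the titles (3 libraries). Cultures of both groups received 250 µM vitamin C, and no culture without it is analysed here. The labels do not say whether the lines are clones or pools, how long they were treated, or whether each replicate was its own culture, and the p-values then reflect no more than library-to-library spread, which may be technical.

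A cell that approaches mitosis accumulates cyclins A and B, which activate CDK1. Most genes of the programme are held down in G1 by the DREAM complex and switched on in G2 by B-MYB and FOXM1. Both DREAM and B-MYB act through a short promoter element, the cell cycle genes homology region (CHR), which often stands near a CCAAT box bound by NF-Y. During and after mitosis the anaphase-promoting complex (APC/C) destroys many of the proteins, and the programme is known as a mark of dividing cells, leukaemia cells included. In a bulk sample, fewer cells in G2 and mitosis and less of these transcripts per cell cannot be told apart.

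Between 31054462 and 35770556 reads per library were recovered from the deposited values. SLC2A3 itself, read as a check of the labels, stood at 3942 ± 196 normalised reads in SLC2A3 libraries against 1211 ± 40.2 in empty vector libraries (SD, n = 3 each). The line's myeloid character was visible in the granule proteases, with CTSG at 139465 ± 4690 normalised reads in SLC2A3 libraries and 124582 ± 4917 in empty vector libraries. Of 15 myeloid markers fitted of 16 listed, PRTN3 and CTSG rose (all genes 0.692% called higher) and FLT3 fell (all genes 0.8% called lower). FLT3 was called in 11 of 18 alternatives and lost its call without any single library other than empty vector replicate 2. A pseudocount of 0.1 also lost it. The list summed to 262798 to 275988 normalised reads in SLC2A3 libraries against 239112 to 249540 in empty vector libraries. CTSG was the largest part of that sum, followed by AZU1 and PRTN3. Of the 15 fitted, 6 had a log2 change below 0 and 9 above it (list median 0.04). Of 16 markers of other cell types, CD3D, CD3E, MS4A1, HBA1 and HBB had 0 reads in every library and none of the 9 fitted passed the test; the list summed to 1806 to 1851 normalised reads in SLC2A3 libraries against 1909 to 2018 in empty vector libraries. Most of that sum was PECAM1, at 1535 to 1632 normalised reads in SLC2A3 libraries against 1680 to 1738 in empty vector libraries, while 6 of the 9 markers had a log2 change above 0 (list median 0.51), each with at most 40.6 normalised reads in any library. Libraries also differed in the noncoding RNA RN7SL1, at 2233, 6026 and 1922 normalised reads in SLC2A3 libraries against 538, 1812 and 705 in empty vector libraries, highest in replicate 2 of each group. RN7SL1 was itself called higher in SLC2A3 libraries (log2 change 1.74, limma adjusted p = 0.000861), without overlap between groups. Counts without both replicate 2 libraries are given below. Leaving those out does not remove the group difference in RN7SL1, at 2233 and 1922 normalised reads against 538 and 705. The part of RN7SL1 and of the marker genes in the results below was not tested.

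The promoters of 6 of the genes that fell are shown because the 2 elements named above can be read in them. They are RefSeq windows on GRCh38.p14, 300 bases each, 250 before to 50 after the annotated start, written 5′ to 3′ on the gene's own strand. Capitals mark every match to the CHR letters TTTGAA and to CCAAT on either strand, so TTCAAA and ATTGG are matches on the opposite strand. In MKI67 and CDCA8 a TTTGAA and an ATTGG share 1 base.
ESPL1, chr12:53268049-53268348, plus strand: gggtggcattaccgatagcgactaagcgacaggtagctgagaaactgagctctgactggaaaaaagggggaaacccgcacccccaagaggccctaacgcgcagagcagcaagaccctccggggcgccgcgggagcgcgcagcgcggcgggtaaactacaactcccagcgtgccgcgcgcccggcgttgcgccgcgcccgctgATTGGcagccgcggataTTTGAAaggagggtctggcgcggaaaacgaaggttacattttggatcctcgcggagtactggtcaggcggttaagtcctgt
MKI67, chr10:128126374-128126673, minus strand: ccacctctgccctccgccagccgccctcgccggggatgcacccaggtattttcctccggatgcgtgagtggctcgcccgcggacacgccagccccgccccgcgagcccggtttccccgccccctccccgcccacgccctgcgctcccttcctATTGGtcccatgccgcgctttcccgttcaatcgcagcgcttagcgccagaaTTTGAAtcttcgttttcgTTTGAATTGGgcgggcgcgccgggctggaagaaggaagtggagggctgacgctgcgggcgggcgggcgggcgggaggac
PLK1, chr16:23678639-23678938, plus strand: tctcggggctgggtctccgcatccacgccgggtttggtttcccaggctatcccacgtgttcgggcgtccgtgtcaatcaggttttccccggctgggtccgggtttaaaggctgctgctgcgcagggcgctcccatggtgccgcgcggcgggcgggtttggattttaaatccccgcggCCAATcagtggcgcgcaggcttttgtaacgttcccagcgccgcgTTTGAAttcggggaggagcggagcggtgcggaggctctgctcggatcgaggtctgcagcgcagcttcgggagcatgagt
ASPM, chr1:197146620-197146919, minus strand: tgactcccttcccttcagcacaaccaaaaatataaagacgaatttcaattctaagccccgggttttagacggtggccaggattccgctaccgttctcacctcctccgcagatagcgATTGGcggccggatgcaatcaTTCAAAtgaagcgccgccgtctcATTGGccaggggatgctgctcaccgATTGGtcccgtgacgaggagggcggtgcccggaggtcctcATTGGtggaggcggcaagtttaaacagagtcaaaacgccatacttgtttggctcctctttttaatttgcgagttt
TOP2A, chr17:40417847-40418146, minus strand: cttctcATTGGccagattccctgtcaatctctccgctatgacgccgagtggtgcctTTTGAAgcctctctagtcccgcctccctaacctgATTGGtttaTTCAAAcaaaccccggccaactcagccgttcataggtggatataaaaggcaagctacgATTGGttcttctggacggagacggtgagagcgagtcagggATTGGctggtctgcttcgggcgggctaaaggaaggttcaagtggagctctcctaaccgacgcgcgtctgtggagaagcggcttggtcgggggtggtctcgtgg
CDCA8, chr1:37692266-37692565, plus strand: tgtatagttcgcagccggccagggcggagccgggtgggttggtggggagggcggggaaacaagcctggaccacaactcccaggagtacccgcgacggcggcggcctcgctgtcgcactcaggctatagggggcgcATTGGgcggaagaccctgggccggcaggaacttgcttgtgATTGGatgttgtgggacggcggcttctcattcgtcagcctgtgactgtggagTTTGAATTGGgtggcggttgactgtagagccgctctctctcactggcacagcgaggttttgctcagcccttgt

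In ESPL1 the TTTGAA began 31 bases before the start and an ATTGG 48 bases before it, and in PLK1 the TTTGAA began 29 and the CCAAT 73 bases before it. The TTTGAA matches began 47 and 29 bases before the start in MKI67 and 23 in CDCA8. They lay farther away in TOP2A, at 194 and, on the opposite strand, 151 bases, and in ASPM, at 113 on the opposite strand. RefSeq windows matched 45 of the 52 genes. Of these, 34 held TTTGAA on either strand, or 75.6%, against 15.4% of all 27305 promoter windows of the same length. A CCAAT stood in 36 of the 45, or 80%, against 35.7% of all windows. Among the 8 genes called lower below, 7 held TTTGAA, KIF20A being the exception, and all 8 held CCAAT. The CHR variant TTCGAA, which reads the same on both strands, was in 2 of the 45 (4.44%) against 1.45% of all windows. A match describes letters in a window and does not show that a factor binds there.

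ESPL1, MKI67, KIF20A, PLK1, ASPM, TOP2A, CDCA8 and HMMR were lower in SLC2A3 overexpressed cells, by 10.9% to 24.5%, while the other 44 genes did not pass the test. By limma, 8 of 52 genes fell past the threshold of 0.05 on Benjamini-Hochberg adjusted p and 0 rose, against 0.8% of all 28015 genes called lower and 0.692% called higher. Of protein-coding genes 1.41% were called lower; their median value was 536 normalised reads, against 2116 for the 52 genes. The log2 change was below 0 for 50 of 52 genes (all genes 49.7%), the exceptions being BUB3 and MAD2L1, and its median was -0.14 against 0.00 for all genes. SLC2A3 libraries lay wholly below empty vector libraries for 29 of 52 genes (55.8%), against 8.27% of all genes, and wholly above for 0 genes, against 8.04%. An unadjusted p under 0.05 was reached by 27 genes, all lower, against 6.12% of all genes lower and 5.63% higher. The list was put together with earlier results of these data known, so its common direction is a description and not independent support.

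The number of calls depended on the test and on single libraries. Without SLC2A3 overexpressed replicate 3, 3 of the genes were called lower (all genes 0.327%), and without empty vector replicate 1 or replicate 3, 5 were (0.491% and 0.373%). On recovered reads, edgeR's quasi-likelihood test called 14 lower (all genes 1.76%), limma-voom 14 (1.73%) and DESeq2 16 (1.23%). The shares for edgeR and limma-voom are over 18630 genes. That for DESeq2 is over all 37328 genes with a p-value, low genes included, so it is not on the same footing. Among genes with at least 50 normalised reads in 3 libraries, limma called 15 of 51 lower (3.12%). Without both libraries highest in RN7SL1, 9 were called lower (1.02%). ESPL1, MKI67 and KIF20A were called lower in all 18 alternatives.

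**Figure D1:**
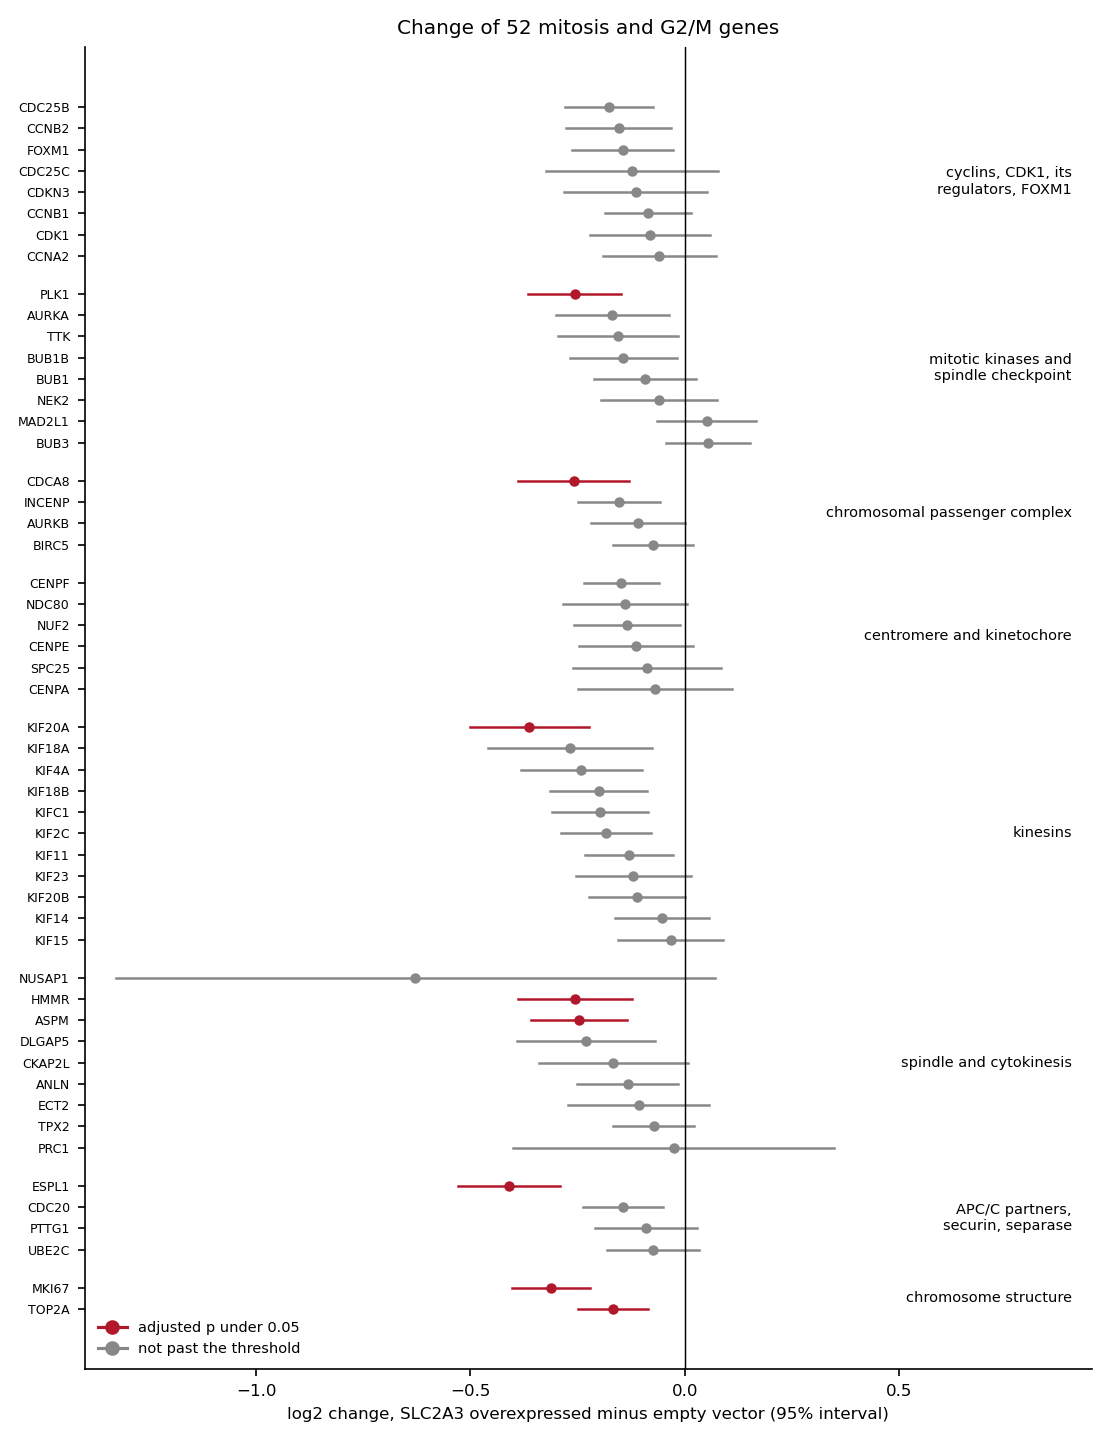
Log2 change (SLC2A3 overexpressed minus empty vector, horizontal axis) of each of the 52 genes with its 95% interval, grouped by role, with the 8 genes past the threshold in red. Of the 52 points, 50 lie left of 0, and 27 intervals lie wholly left of it.

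Together the 52 genes took 0.420%, 0.424% and 0.426% of the recovered reads in SLC2A3 libraries (exact 95% intervals 0.418 to 0.423, 0.422 to 0.427 and 0.424 to 0.428). In empty vector libraries they took 0.482%, 0.467% and 0.470% (0.479 to 0.484, 0.464 to 0.469 and 0.467 to 0.472), so the groups did not overlap. The intervals cover counting error only. Set against the empty vector mean of each gene, the median deviation on the log2(value + 1) scale was -0.17, -0.13 and -0.13 in SLC2A3 libraries and 0.03, 0.00 and -0.02 in empty vector libraries. The lowest of the 6 values stood in an SLC2A3 library for 50 genes, 27 of them in replicate 1, and in an empty vector library for 2. The highest stood in an SLC2A3 library for 3 genes and in an empty vector library for 49, 28 of them in replicate 1.

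**Figure D2:**
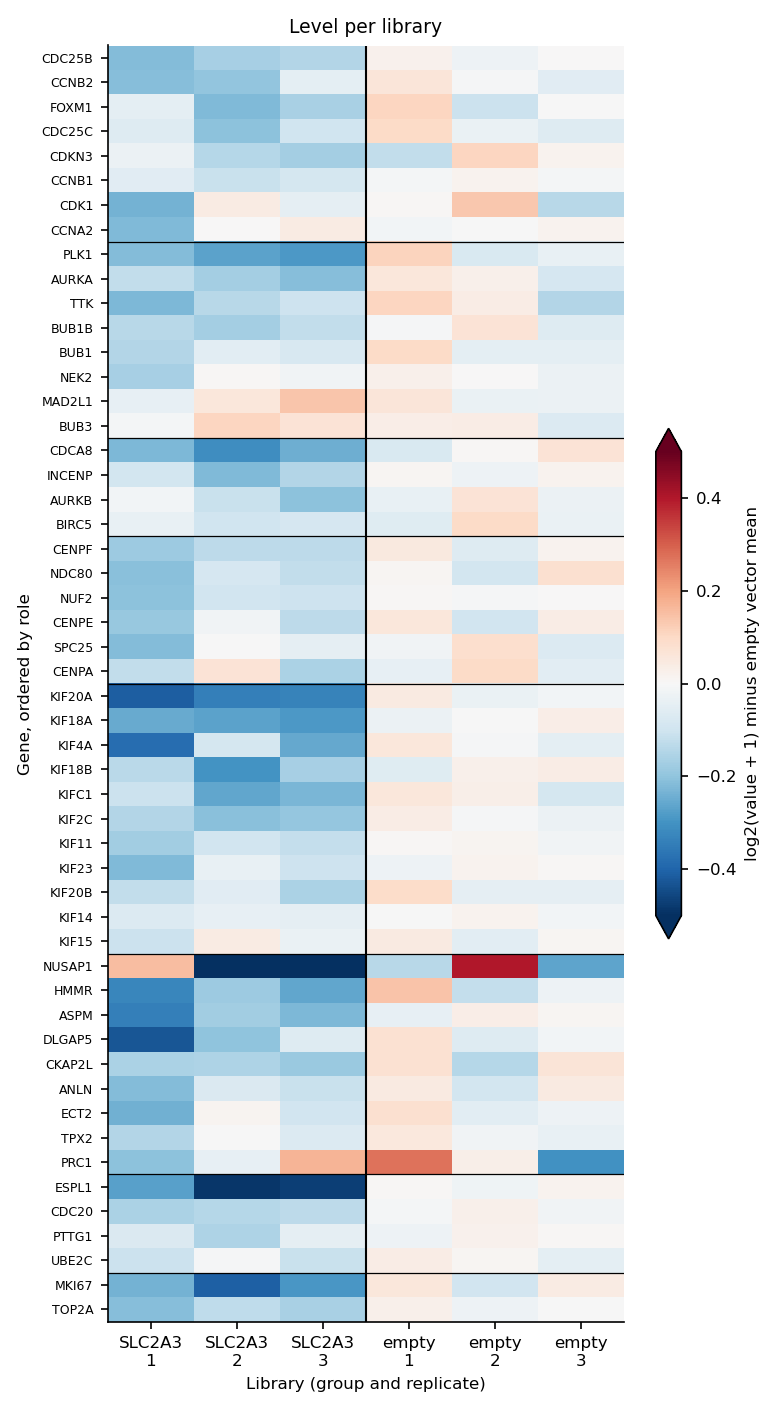
Level of each gene (rows, ordered by role with lines between roles) in each library (columns, SLC2A3 left, empty vector right) as log2(value + 1) minus the gene's empty vector mean; the colour scale ends at ±0.5. The 3 SLC2A3 columns are mostly blue, with 51, 44 and 48 of 52 genes under the empty vector mean, and NUSAP1 and PRC1 vary most within a group.

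ESPL1 and MKI67, a protease of anaphase and a protein of the chromosome surface, had the smallest adjusted p among the 52. ESPL1 encodes separase, the protease that cleaves cohesin at anaphase (chromosome 12, 53268299 to 53293643, GRCh38). Its normalised reads were 2508, 2158 and 2183 in SLC2A3 libraries, against 3033, 2981 and 3060 in empty vector libraries. Every SLC2A3 library lay below every empty vector library, and the mean fell by 24.5%, to 2283 ± 195 against 3025 ± 39.9 (SD, n = 3 each; log2 change -0.41, SE 0.058, limma adjusted p = 0.000132). The 3 other members of the step did not pass: CDC20, the APC/C activator of metaphase, had a log2 change of -0.14, PTTG1, which encodes securin, the inhibitor of separase, -0.09, and UBE2C, the E2 enzyme of the APC/C, -0.07.

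MKI67, the proliferation marker that coats mitotic chromosomes, had 17551, 15591 and 16899 normalised reads in SLC2A3 libraries, against 21480, 19349 and 21247 in empty vector libraries. The groups did not overlap, and replicate 2 was the lowest library of each. MKI67 fell by 19.4% (log2 change -0.31, SE 0.044, limma adjusted p = 0.000142). It lies on chromosome 10, from 128096659 to 128126385. TOP2A, the topoisomerase that untangles chromosomes before they separate, had 10446, 11108 and 10819.9 normalised reads in SLC2A3 libraries, against 12346, 11905 and 12098 in empty vector libraries. Its decrease of 10.9% was the smallest among the 8 (log2 change -0.17, SE 0.040, limma adjusted p = 0.0231), with no overlap between groups. With single libraries left out, TOP2A was not called without SLC2A3 overexpressed replicate 1 or 3 or without empty vector replicate 1 or 3, where its adjusted p reached 0.132.

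**Figure D3:**
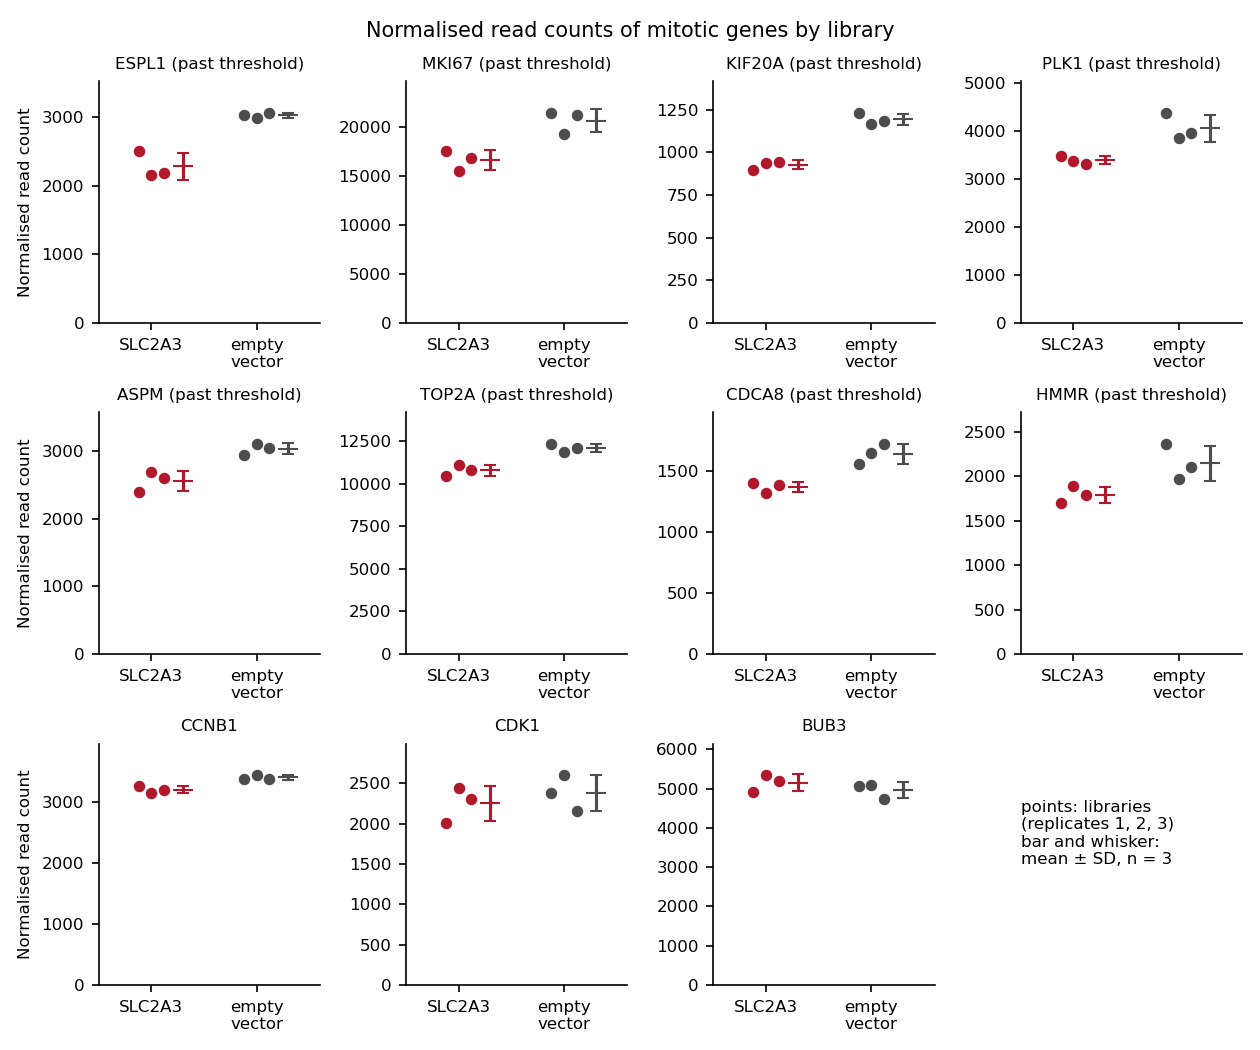
Normalised read counts (vertical axes from 0) of the 8 genes past the threshold and of CCNB1, CDK1 and BUB3, with 1 point per library in order of replicate number and the mean ± SD of 3 libraries beside them, SLC2A3 left and empty vector right. For the 8 genes the highest SLC2A3 point lies below the lowest empty vector point, and for CDK1 and BUB3 the groups overlap.

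The kinesins are motors that move chromosomes and spindle microtubules. Those with KIF symbols are counted here, and the motor CENPE is counted with the kinetochore. Of these 11 kinesin genes, 1 was called lower (all genes 0.8%). All 11 had a log2 change below 0 (all genes 49.7%, kinesin median -0.18), and 10 had SLC2A3 libraries wholly below empty vector libraries (all genes 8.27%). KIF20A, a motor of the central spindle needed for cytokinesis, had 897, 940 and 946 normalised reads in SLC2A3 libraries, against 1230.5, 1165 and 1182 in empty vector libraries. The gap between the groups was wider than the range within either, and KIF20A fell by 22.2% (log2 change -0.36, SE 0.068, limma adjusted p = 0.00289). It lies on chromosome 5, from 138178719 to 138187715, and shares 132 exon bases with BRD8 and 68 with CDC23, both on the opposite strand. Whether counting used the strand is not stated, so reads in such overlaps are uncertain; 19 of the 52 genes share exon bases with another gene. BRD8 had 1690, 1665 and 1559 normalised reads in SLC2A3 libraries and 1859, 1859 and 1929 in empty vector libraries, which did not pass (limma adjusted p = 0.0925).

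Among the other kinesins, KIFC1, a minus-end motor, KIF18B and KIF2C, depolymerisers of microtubule ends, and KIF4A, a chromosome-bound motor, had log2 changes of -0.20, -0.20, -0.18 and -0.24. None of these passed by limma (adjusted p = 0.0668, 0.0675, 0.0741 and 0.0843), while edgeR, DESeq2 and limma-voom called all 4. KIF18A, which dampens chromosome movement at the plate, had 390, 385 and 380 normalised reads in SLC2A3 libraries and 454, 464 and 475 in empty vector libraries. Its log2 change of -0.27 was the largest among kinesins that did not pass (SE 0.093, limma adjusted p = 0.182), and it was not called in any of the 18 alternatives. KIF11, the motor that pushes spindle poles apart, KIF23, the partner of the central spindle, and KIF20B had log2 changes of -0.13, -0.12 and -0.11, KIF14 -0.05 and KIF15, which backs up KIF11, -0.03. KIF15 was the only 1 of these 11 genes whose groups overlapped.

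Among 8 mitotic kinases and spindle checkpoint genes, PLK1 alone passed (all genes 0.8% called lower, list median -0.12). PLK1, the Polo kinase that acts from mitotic entry to cytokinesis, had 3486, 3368 and 3315 normalised reads in SLC2A3 libraries, against 4374, 3844 and 3949.7 in empty vector libraries. The groups did not overlap, although empty vector replicate 1 stood well above the other two. PLK1 fell by 16.4% (log2 change -0.26, SE 0.053, limma adjusted p = 0.00681), and lost its call without empty vector replicate 1 or SLC2A3 overexpressed replicate 3, with an adjusted p of at most 0.0882. It lies on chromosome 16 and overlaps an antisense gene, AC008870.3, which had at most 6.50 normalised reads in any library.

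AURKA, the kinase of the spindle poles, TTK, the kinase that starts checkpoint signalling, and BUB1B, a checkpoint protein that inhibits the APC/C, had log2 changes of -0.17, -0.16 and -0.14 with 95% intervals below 0, but did not pass (limma adjusted p = 0.246, 0.343 and 0.319). BUB1 and NEK2 had -0.09 and -0.06. BUB3 and MAD2L1, partners in the checkpoint complex, were the members with a log2 change above 0. BUB3 had 4923, 5348 and 5198 normalised reads in SLC2A3 libraries, against 5079, 5087 and 4728 in empty vector libraries. These overlap, and the log2 change of 0.05 did not pass (95% interval -0.04 to 0.15, limma adjusted p = 0.75). MAD2L1 likewise had 0.05 (-0.06 to 0.17).

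The chromosomal passenger complex, in which INCENP, survivin (BIRC5) and borealin (CDCA8) hold the kinase AURKB, held 1 call among 4 (all genes 0.8% called lower, list median -0.13). CDCA8 had 1402, 1320.5 and 1379.9 normalised reads in SLC2A3 libraries, against 1553, 1642 and 1718 in empty vector libraries, without overlap. CDCA8 fell by 16.5% (log2 change -0.26, SE 0.063, limma adjusted p = 0.026). It lost that call with a pseudocount of 0.1, without SLC2A3 overexpressed replicate 2 or 3, without empty vector replicate 2 or 3 and without both libraries highest in RN7SL1, with an adjusted p of up to 0.204. INCENP had a log2 change of -0.15, AURKB -0.11 and BIRC5 -0.07, none past the threshold (limma adjusted p = 0.107, 0.433 and 0.579). Differences between members of the complex were not tested.

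Of 9 genes of the spindle and cytokinesis, ASPM and HMMR fell (all genes 0.8% called lower, list median -0.17). ASPM, a spindle pole protein named for its role in brain size, had 2398, 2691 and 2599.5 normalised reads in SLC2A3 libraries, against 2949.8, 3106 and 3053 in empty vector libraries. No values overlapped, and ASPM fell by 15.6% (log2 change -0.25, SE 0.055, limma adjusted p = 0.0131). HMMR, a hyaluronan receptor that also binds the spindle, had 1705, 1888 and 1789 normalised reads in SLC2A3 libraries, against 2365, 1970.2 and 2102 in empty vector libraries. The nearest values of the groups, 1888 and 1970.2, were closer than the range within either, and HMMR fell by 16.4% (log2 change -0.26, SE 0.065, limma adjusted p = 0.039). ASPM lost its call without SLC2A3 overexpressed replicate 1 or 3 or empty vector replicate 3 (adjusted p up to 0.0741). HMMR lost its call with a pseudocount of 0.1, or without SLC2A3 overexpressed replicate 1 or 3 or empty vector replicate 1 or 3 (adjusted p up to 0.284).

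DLGAP5, a spindle microtubule binder, had a log2 change of -0.23 and CKAP2L -0.17, while ANLN, the scaffold of the contractile ring, and ECT2, the RhoA exchange factor that positions it, had -0.13 and -0.11. TPX2, which activates AURKA, had -0.07. NUSAP1 and PRC1, binders of spindle microtubules, were by far the lowest members per length, at 20.5 and 30.3 normalised reads per kilobase of the longest annotated transcript in empty vector libraries, against 130 to 3196 for the other 50 genes. NUSAP1 had 53.9, 22.1 and 24.6 normalised reads in SLC2A3 libraries and 43.8, 64.0 and 40.0 in empty vector libraries, a log2 change of -0.63 with a 95% interval from -1.33 to 0.07. These values overlap and rest on 23 to 64 reads per library. On the same strand, the annotated gene AC087721.2 shares 1787 exon bases with NUSAP1 and AC068831.7 shares 3181 with PRC1, so the division of reads among them is uncertain. AC087721.2 had 0 reads in every library. AC068831.7 had 264, 255 and 285 normalised reads in SLC2A3 libraries and 345, 261 and 269 in empty vector libraries, above PRC1 at 106, 119 and 138 in SLC2A3 libraries and 148, 125 and 99.1 in empty vector libraries.

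Genes of the centromere and kinetochore, which attach chromosomes to the spindle, held no call among 6 by limma (all genes 0.8% called lower, list median -0.12). An unadjusted p under 0.05 was reached by 2 of the 6, lower (all genes 6.12% lower). CENPF, a large kinetochore protein, came nearest, with a log2 change of -0.15 (SE 0.043, limma adjusted p = 0.0875), and was called by edgeR, DESeq2 and limma-voom, which called none of the other 5. NDC80 and NUF2, which bind microtubules together, had -0.14 and -0.13, their partner SPC25 -0.09, the motor CENPE -0.11 and the centromeric histone CENPA -0.07.

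The cyclins, CDK1 and its regulators held no call among 8 by limma either (all genes 0.8% called lower, list median -0.12). An unadjusted p under 0.05 was reached by 3 of the 8, lower (all genes 6.12% lower). CCNB1, cyclin B1, had 3273, 3149 and 3202 normalised reads in SLC2A3 libraries, against 3386, 3446 and 3386 in empty vector libraries. All 3 SLC2A3 libraries were below the empty vector libraries, but the log2 change of -0.09 (95% interval -0.19 to 0.01) did not pass (limma adjusted p = 0.525). CDK1 had 2014, 2439.6 and 2300.5 normalised reads in SLC2A3 libraries, against 2385, 2603 and 2155 in empty vector libraries, which overlap (log2 change -0.08, 95% interval -0.22 to 0.06). CDC25B, a phosphatase that activates CDK1 at entry, had the largest change of the 8, at -0.18 (limma adjusted p = 0.0749), and was called by edgeR, DESeq2 and limma-voom. CCNB2 had -0.15, FOXM1, the transcription factor of the G2 programme, -0.14, CDC25C -0.12, CDKN3, a phosphatase that acts on CDKs, -0.11 and CCNA2 -0.06.

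Other cell cycle genes were read from fixed lists, also chosen with earlier results known. Over all genes, limma called 0.8% lower and 0.692% higher, and 6.12% lower and 5.63% higher had an unadjusted p under 0.05. By edgeR, DESeq2 and limma-voom, 1.76%, 1.23% and 1.73% of the genes tested were called lower. Lists this short with 0 calls lie near these shares. A list of APC/C subunits with FZR1, its coactivator, FBXO5, its inhibitor, and the ubiquitin-conjugating enzymes UBE2S and CDC34, the last a partner of another ligase, held 0 calls among 18 by limma, edgeR, DESeq2 and limma-voom. Its median log2 change was 0.01, and the 2 genes at an unadjusted p under 0.05, ANAPC16 and UBE2S, were higher in SLC2A3 libraries, with log2 changes of 0.14 and 0.10. Of 35 other kinetochore and centromere genes, 0 passed by limma or by these other tools, 9 had an unadjusted p under 0.05, 7 of them lower, and the median was -0.06. Of 19 condensin and cohesin genes, the condensin subunits NCAPD2 and NCAPD3 fell (median -0.07). NCAPD2 had 10216 ± 341 normalised reads in SLC2A3 libraries against 12160.5 ± 334 in empty vector libraries (n = 3 each, log2 change -0.25, limma adjusted p = 0.000607), and NCAPD3 had a log2 change of -0.20 (limma adjusted p = 0.0131). NCAPD2 was called in all 18 alternatives. NCAPD3 was not called without SLC2A3 overexpressed replicate 3 or without empty vector replicate 1 or 3.

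Of 16 G2/M checkpoint and entry genes, CCNF, cyclin F, fell to 2241 ± 67.3 normalised reads in SLC2A3 libraries, against 2655 ± 22.7 in empty vector libraries (n = 3 each, log2 change -0.24, limma adjusted p = 0.0112), and lost its call without empty vector replicate 3. WEE1, the kinase that restrains CDK1, had a log2 change of -0.01, which turned above 0 without SLC2A3 overexpressed replicate 1 or empty vector replicate 1, and the list median was -0.01. Of 18 centrosome genes, TACC3, which stabilises spindle microtubules, passed with -0.16 (limma adjusted p = 0.037), and it was called in 9 of 18 alternatives. TACC3 lost its call without any single library other than SLC2A3 overexpressed replicate 1. It was also lost with upper-quartile scaling, with a pseudocount of 0.1 and without both libraries highest in RN7SL1. The DREAM and B-MYB regulators held 0 calls among 13 by limma, edgeR, DESeq2 and limma-voom. For a list this short that is near the share over all genes (limma 0.8% lower and 0.692% higher). An unadjusted p under 0.05 was reached by 2 of the 13, lower (all genes 6.12% lower). MYBL2, which encodes B-MYB, had a log2 change of -0.07 and LIN54, the DREAM subunit that contacts the CHR, -0.10. FZR1 had -0.09.

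The DNA replication and E2F list, the closest in its values, had 32 of 33 genes with a log2 change below 0 (all genes 49.7%), a median of -0.13 and 19 genes (57.6%) with SLC2A3 libraries wholly below empty vector libraries (all genes 8.27%). TK1, MCM5 and POLE fell in it (all genes 0.8%), with log2 changes of -0.25, -0.18 and -0.19 (limma adjusted p = 0.0012, 0.0114 and 0.03). DESeq2 called 11 of the 33 lower (1.23% of all 37328 genes with a p-value, low genes included). TK1 was called in all 18 alternatives. MCM5 lost its call without SLC2A3 overexpressed replicate 2 or 3 or both libraries highest in RN7SL1, and POLE with a pseudocount of 0.1, without either of these replicates or without empty vector replicate 1 or 3. The differences between the lists were not tested.

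**Figure D4:**
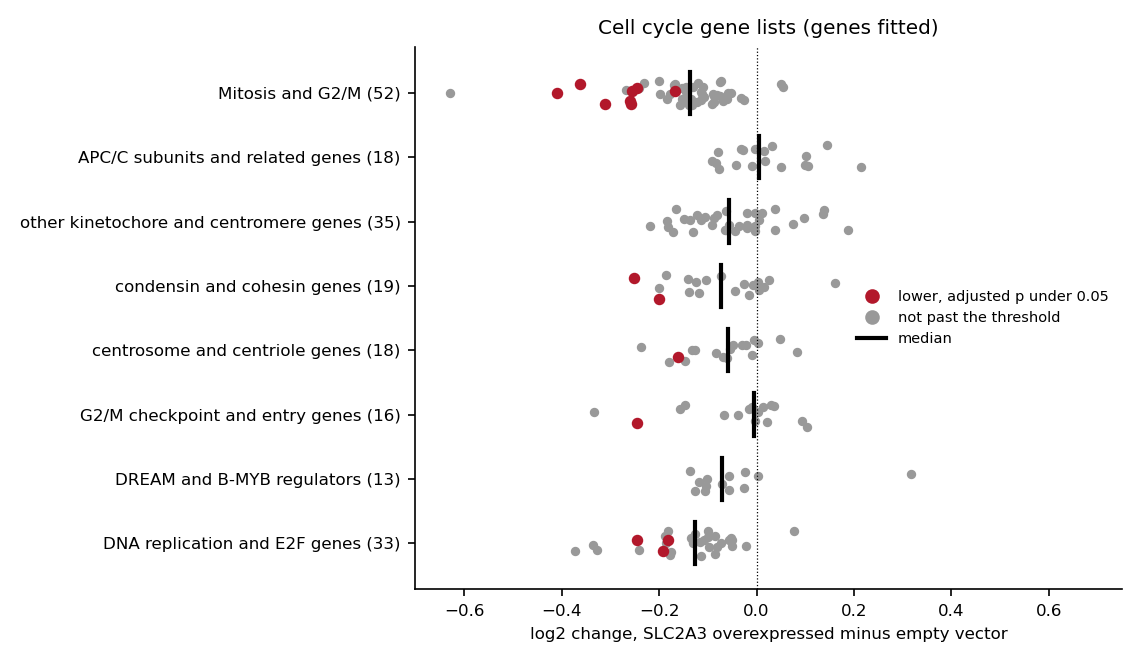
Log2 change (SLC2A3 overexpressed minus empty vector, horizontal axis) of each gene fitted in the mitosis and G2/M list and in 7 other cell cycle lists, with the number of genes in brackets, a bar at the median and genes past the threshold in red. The medians run from -0.14 in the mitosis list to 0.01 in the APC/C list, and no gene of these lists rose past the threshold.

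The longest annotated transcripts of the 52 genes had a median GC content of 42.9%, against 49.1% for protein-coding genes fitted, and a median length of 3572 bases against 3560. Over the 52 genes, Spearman's rho between log2 change and GC content was -0.20, and with transcript length -0.14. These are descriptions across genes of the same 6 libraries. With a trend of the values with length and GC content removed, 15 of the genes were called lower (all genes 1.2%) and 0 higher, and the median log2 change was -0.16. KIFC1, KIF2C, KIF4A, CENPF, CDC20, DLGAP5 and NUF2 were called there beside the 8.

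**Figure D5:**
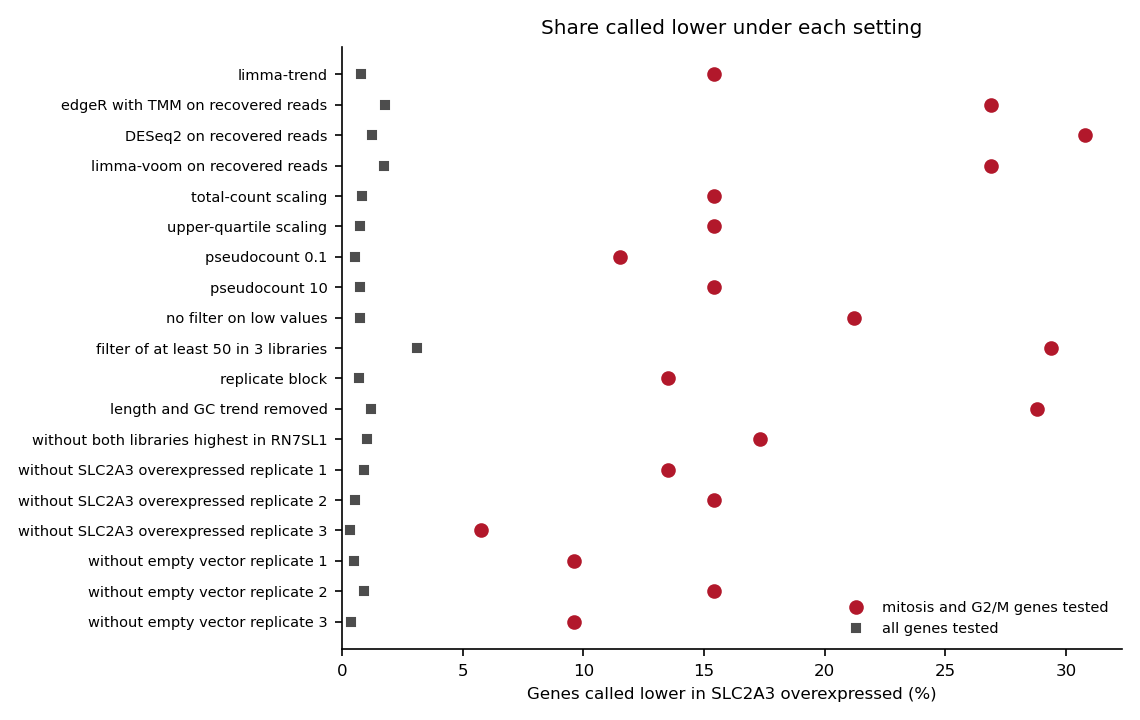
Share of genes called lower in SLC2A3 overexpressed libraries (horizontal axis, percent) for the mitosis and G2/M genes tested (circles) and for all genes tested (squares), under the fit reported here and 18 alternatives (rows). The circles run from 5.77% without SLC2A3 overexpressed replicate 3 to 30.8% with DESeq2, and the squares from 0.327% to 3.12%.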

How the data were processed

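RNA-seq of 6 OCI-AML3 libraries was analysed. Per the labels' protocols, RNA was extracted with Trizol and libraries were made with a directional NEBNext kit. Named in the submitters' processing notes are BWA, TopHat2 and the hg38 build, without roles. The counting tool, its strand setting and the gene annotation are not given in the sources used here. What the authors deposited is a signal per gene: read counts that had been scaled by a single factor for each library. In each library 100% of positive values were whole multiples of the smallest, within 0.001 reads, and the factors (0.936 to 1.08) equalled median-of-ratios size factors. Reads recovered this way allowed count tests as alternatives.

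Values plus 1, as log2, were fitted with limma 3.58.1 (R 4.3.3, trended variances, group only) for 28015 genes, so fold changes of low genes are understated. Adjusted p-values are Benjamini-Hochberg over all of them. Alternatives were edgeR 4.0.16, DESeq2 1.42.0, limma-voom, other scalings, pseudocounts and filters, a replicate block, a length and GC trend, and libraries left out. The fits were tested on simulated data. No replicate pair agreed within sampling noise (chi-square per gene 3.50 to 6.78), so none was merged as a repeat deposit, which does not show that the cultures were separate. Coordinates and overlaps are from GENCODE 29 (GRCh38), and promoters from RefSeq (GRCh38.p14). GC content and length are those of the longest GENCODE transcript. Symbols came from the gene name table or GENCODE, for 60641 of 60660 IDs.

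The members and lists were chosen with earlier results of these data known. Values by library are given for every member past the threshold, for CCNB1, CDK1, TOP2A and the member with the largest rise. Genes of other lists are named where they pass, with MYBL2, LIN54, WEE1 and FZR1 whatever their result. KIF18A, NUSAP1, PRC1, BRD8 and AC068831.7 were given by library, and ANAPC16, UBE2S and PECAM1 named, after their values were seen. MPO, ITGAM, CD34, KIT and AZU1 were also named after their values were seen.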

Additional observations from a re-analysis of the deposited data

How the results depend on the processing

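No gene of the 52 was called higher under any of the 18 alternatives, and the median log2 change of the list lay between -0.16 and -0.13 in all of them, while 0.372% to 2.41% of all genes were called higher. The number called lower, 8, was 14 with edgeR, 14 with limma-voom, 16 with DESeq2, 15 with a filter of at least 50 in 3 libraries and 15 with the length and GC trend removed, where the median was -0.16. The filter fits 13374 genes, against 28015 in the fit reported here. The cause of these differences was not tested. With 1 library left out, 3 to 8 genes were lower (named beside the calls), as were 88 to 244 of all genes, with 100 to 222 higher. A pseudocount of 0.1 gave 144 lower and 140 higher over all genes. With a filter of 50, 417 were lower and 322 higher. DESeq2 gave 459 lower and 345 higher. Of 44 genes not called, 10 were called lower in at least 1 alternative and 34 in none. Log2 changes crossed 0 when 1 library was left out for CCNA2 (-0.11 to 0.022), KIF15 (-0.070 to 0.0044), PRC1 (-0.18 to 0.11) and WEE1 (-0.051 to 0.041), none of them called. Samples of the same replicate number did not deviate together (correlations -0.11, 0.01 and 0.00 over 11730 genes), so they were not treated as pairs, though a shared batch was not tested. With a replicate block, 7 genes were called lower (0.7% of all genes), TOP2A being lost, and 0 higher. Of genes in the other lists, TACC3 and FLT3 lost their calls with the block. Read numbers limit NUSAP1 and PRC1.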
